A study of Mus musculus with 6 samples.

Results

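Suppressors of cytokine signalling (SOCS) and PIM kinases were examined in colonic group 2 innate lymphoid cells (ILC2s), lymphocytes of mucosal tissue that lack antigen receptors and are known for IL-5 and IL-13 production. The set held the 8 SOCS genes Cish, Socs1, Socs2, Socs3, Socs4, Socs5, Socs6 and Socs7 and the PIM kinase genes Pim1 and Pim2, chosen by symbol. All 10 were listed among the 23268 genes of the table, and all 10 were among the 12187 genes tested, which had a mean of at least 1 FPKM over the 6 libraries. The tested cells came from mice that drank 3% dextran sulfate sodium (DSS), a chemical that injures the colonic epithelium, for 6 days, and the controls (Ctrl) from mice that drank water. All were C57BL/6 mice aged 6 to 8 weeks, with no transgene or other agent named in the labels. RNA was sequenced in 3 DSS and 3 Ctrl libraries and reported as FPKM, fragments scaled to gene length and library depth. Levels can be set side by side between genes only if the gene lengths used, which are not given, are right. The labels do not say whether a library came from 1 mouse or from a pool, nor how the cells were gated, so a p-value here measures the spread between these libraries, which may be technical.

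SOCS proteins are feedback brakes on cytokine receptors. Cytokine receptors activate JAK kinases, JAKs phosphorylate STAT transcription factors, and STATs induce SOCS genes. The SOCS proteins then bind receptors or JAKs through an SH2 domain and recruit a ubiquitin ligase through the SOCS box. PIM kinases are serine and threonine kinases, active once made, whose abundance follows STAT-driven transcription and which favour survival and growth. ILC2s depend on IL-7, IL-2 and related cytokines that signal through STAT5, and Cish and Socs2 are known as STAT5 targets.

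The members lay on 8 chromosomes, and in the GENCODE M21 annotation (GRCm38, the build called mm10) the main transcript of 5 of the 10 (Socs1, Socs3, Socs4, Socs5 and Socs6) carried its coding sequence in 1 exon. RefSeq promoter windows (GRCm38.p6), from 250 bases before to 50 after a gene's start, matched 6 of the 10 members: Cish, Socs1, Socs3, Socs4, Pim1 and Pim2. Socs2, Socs5, Socs6 and Socs7 had no entry. The palindromic STAT motif TTCNNNGAA, which reads the same on both strands, was found in the windows of Cish and Socs3, and those windows are shown for that reason. The Cish window is chr9:107296409-107296708 on the plus strand and the Socs3 window chr11:117969317-117969616 on the minus strand, each printed 5′ to 3′ with the motif in capitals.
Cish: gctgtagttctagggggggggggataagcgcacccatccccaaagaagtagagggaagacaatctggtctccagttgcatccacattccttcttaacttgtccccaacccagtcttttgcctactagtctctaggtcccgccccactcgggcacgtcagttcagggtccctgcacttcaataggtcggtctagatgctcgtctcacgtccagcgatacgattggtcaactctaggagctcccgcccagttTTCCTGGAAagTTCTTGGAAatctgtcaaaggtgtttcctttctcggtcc
Socs3: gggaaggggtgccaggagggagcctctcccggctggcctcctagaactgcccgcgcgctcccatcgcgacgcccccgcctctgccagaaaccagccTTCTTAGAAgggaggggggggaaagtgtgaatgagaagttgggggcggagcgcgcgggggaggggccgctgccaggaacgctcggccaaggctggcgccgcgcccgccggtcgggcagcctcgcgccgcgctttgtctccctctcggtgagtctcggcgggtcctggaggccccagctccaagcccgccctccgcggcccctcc
Cish held 2 matches, beginning at bases 251 and 262 of the window, and the first also met the stricter form TTCCNGGAA. Socs3 held 1 match, at base 97. Over 32851 RefSeq windows of this length, 8.30% held TTCNNNGAA and 1.15% held TTCCNGGAA. The wider spacing, TTC and GAA set 4 bases apart, was in none of the members' windows and in 6.95% of all windows. These are matches of letters and not measured binding.

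The recovered fragments numbered 9677212 to 22450353 per library, fewest in DSS replicate 3. ILC2 markers (Gata3, Rora, Il1rl1, Klrg1 and 6 others) were detected in all libraries, with summed levels of 1457 to 1778 FPKM in DSS and 2170 to 2276 FPKM in Ctrl libraries. Marker sums of other cells were 68.2 to 111 FPKM in DSS and 2.45 to 7.34 FPKM in Ctrl for neutrophils. Of 10 neutrophil markers 6 were tested, all 6 higher in DSS, and 3 passed the limma threshold, among 9 genes called higher in the whole table. Macrophage sums were 20.7 to 49.2 FPKM in DSS and 13.04 to 17.9 FPKM in Ctrl (4 of 10 markers tested, all 4 higher). Colon epithelium sums were 48.4 to 53.5 and 19.3 to 35.7 FPKM (6 of 10 tested, all 6 higher). Markers averaging below 1 FPKM over the 6 libraries were not tested. A marker near 0 in Ctrl could thus be tested only if higher in DSS, so these counts carry little on direction. Among those left out were markers that were not higher in DSS, such as Ly6g and Muc2. T cell sums overlapped, at 21.7 to 62.6 FPKM in DSS and 23.2 to 32.0 FPKM in Ctrl, as did ILC3 sums, at 70.6 to 310 and 171 to 284 FPKM, B cell sums, at 14.4 to 25.9 and 10.7 to 17.2 FPKM, ILC1 and NK sums, at 48.1 to 59.8 and 31.8 to 65.7 FPKM, and stroma sums, at 10.1 to 25.9 and 17.9 to 31.8 FPKM. No marker of these lists was at 0 in all libraries of a group. The part of these cells in the values below was not tested. In such bulk samples, fewer cells of a type and less RNA per cell cannot be told apart.

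By group means, DSS and Ctrl ILC2s had the same order of abundance in the upper part of the family. Socs2 and Cish were the most abundant SOCS transcripts by FPKM, followed by Socs1, with Pim1 and Pim2 between Cish and Socs1, and the other SOCS genes were far lower. The rank of Socs2 above Cish rests on the gene lengths used. The values imply 2320 bp for Socs2 against 9531 bp of annotated exons, and 4904 against 6419 bp for Cish. Cish had more fragments than Socs2 in every library, such as 25277 against 18717 in Ctrl replicate 1. At the group means, 2 members stood out by size of change: Socs5 was at 48.9% and Socs2 at 59.98% of the Ctrl mean in DSS cells. Neither passed over all genes, and 0 of 10 members did by limma (adjusted p under 0.05), against 0.222% of all genes tested (0.148% lower and 0.0738% higher in DSS). At an unadjusted limma p under 0.05 there were 2 members (Socs2 and Socs5), and 8.99% of all genes; limma voom on recovered fragments also called 0 members (0.148% of genes). Both Socs2 and Socs5 had every DSS library below every Ctrl library, 2 of 10 members, against 9.60% of all genes tested. No member had every DSS library above every Ctrl library, against 6.35% of all genes (16.0% in either direction). The log2 change was below 0 for 8 of 10 members, against 46.9% of all genes, with a median of −0.20 over the members and 0.03 over all genes. Among genes with a mean of at least 5 FPKM, the median was −0.29 over 7 members and −0.08 over all genes. Changes are DSS minus Ctrl on the log2(FPKM + 1) scale, which understates those of low genes.

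**Figure D1:**
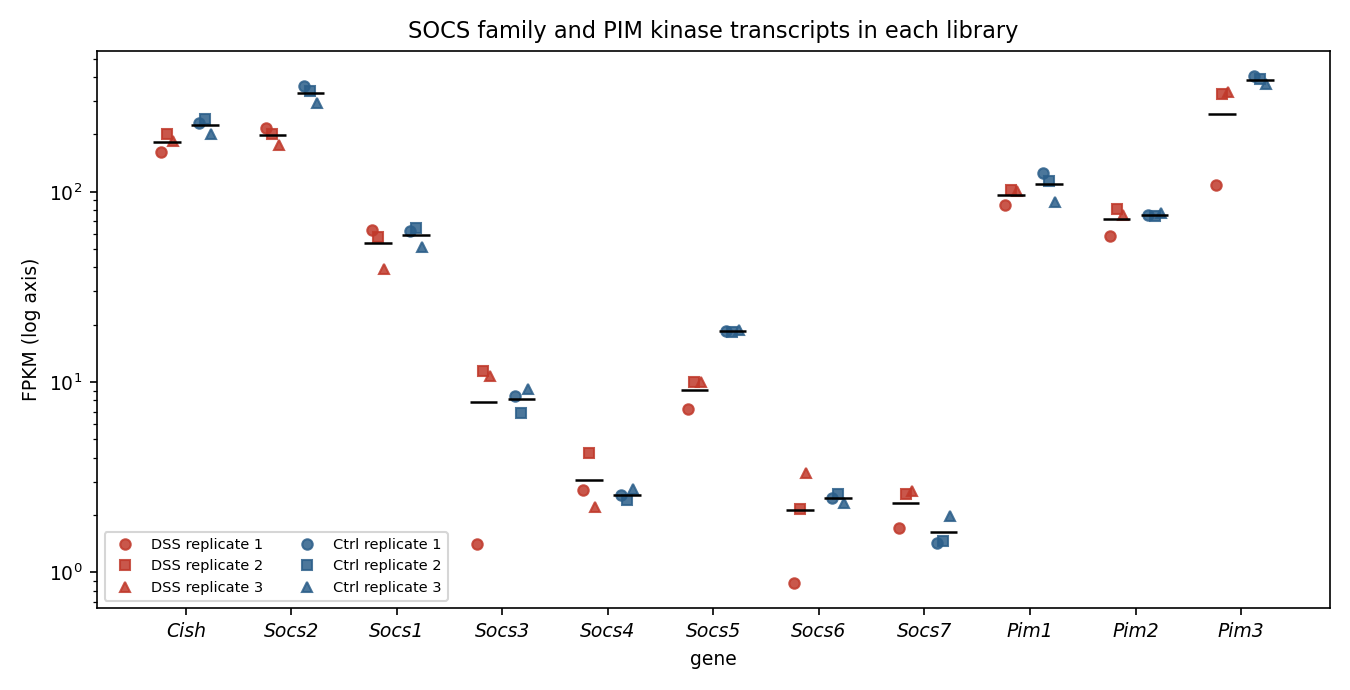
FPKM (log axis) of each gene in each library, DSS left of Ctrl, with bars at the group means (n = 3 libraries each). The DSS points of Socs2, Socs5 and Pim3 lie wholly below the Ctrl points, and DSS replicate 1 is far below the other libraries for Socs3, Socs6 and Pim3.

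Socs2, a STAT5-induced brake on growth hormone and other cytokine receptors, measured 217, 201 and 176 FPKM in DSS replicates 1, 2 and 3, against 360, 337 and 294 FPKM in Ctrl replicates 1, 2 and 3. The groups did not overlap, and the DSS values varied by no more than 1.24-fold. Socs2 averaged 198 ± 20.9 FPKM in DSS and 331 ± 33.4 FPKM in Ctrl ILC2s (SD, n = 3 each), with a log2 change of −0.73 ± 0.20 SE (95% interval −1.18 to −0.29, limma adjusted p = 0.218). Of all tested genes, 3.77% had a change as low or lower. Its nearest relative Cish, which restrains IL-2 and T cell receptor signalling, measured 162, 202 and 185 FPKM in DSS libraries, against 230, 241 and 201 FPKM in Ctrl libraries. The groups overlapped by 1 library, since DSS replicate 2 lay just above Ctrl replicate 3. The Cish change was −0.29 ± 0.20 SE (95% interval −0.73 to 0.15, limma adjusted p = 0.745). Annotated exons of Cish overlap the antisense gene Gm17041 by 1459 bp and the opposite-strand pseudogene Gm17040 by 1009 bp. These libraries do not mark strand, so fragments of the overlaps cannot be separated.

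Socs1 and Socs3, the members that can also block JAK activity directly, had different levels and different spread. Socs1, the main brake on interferon gamma signalling, measured 63.2, 57.9 and 39.5 FPKM in DSS libraries, against 62.1, 64.4 and 50.97 FPKM in Ctrl libraries. The ranges overlapped, and replicate 3 was the lowest of each group. Its change was −0.16 ± 0.23 SE (limma adjusted p = 0.892), 0.04 without DSS replicate 3 and −0.29 without DSS replicate 1. Socs3, the brake on receptors that use gp130, measured 1.41, 11.4 and 10.7 FPKM in DSS libraries, against 8.40, 6.85 and 9.16 FPKM in Ctrl libraries. DSS replicate 1 lay below every Ctrl library, while DSS replicates 2 and 3 lay above every one. The low value rests on 54 fragments, with an exact Poisson 95% interval of 1.06 to 1.84 FPKM for counting error only. The Socs3 change was −0.37 ± 0.54 SE with all libraries and 0.41 ± 0.19 SE without DSS replicate 1 (limma adjusted p = 0.896 and 0.317). The neutrophil marker sum of DSS replicate 1 was 97.5 FPKM, between the other DSS libraries, as were its epithelium and its ILC1 and NK sums. Among DSS libraries it had the highest T cell, ILC3 and B cell sums (62.6, 310 and 25.9 FPKM). It also had the lowest ILC2, macrophage and stroma sums (1457, 20.7 and 10.1 FPKM). Any part of cell content in its Socs3 value was not tested.

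Socs4, Socs5, Socs6 and Socs7 have long N-terminal regions and are less studied; Socs4 and Socs5 are known to act on the EGF receptor. Socs5, also described in mouse T cells as binding the IL-4 receptor, measured 7.19, 10.01 and 9.99 FPKM in DSS libraries, against 18.6, 18.3 and 18.7 FPKM in Ctrl libraries. All 3 DSS libraries lay below the Ctrl libraries, which differed among themselves by 1.02-fold. The means were 9.06 ± 1.62 FPKM in DSS and 18.5 ± 0.218 FPKM in Ctrl (SD, n = 3 each), with a log2 change of −0.97 ± 0.21 SE (95% interval −1.44 to −0.50, limma adjusted p = 0.134). This was the largest change of the 10 members, and 1.32% of tested genes had one as low. Socs4 measured 2.71, 4.24 and 2.22 FPKM in DSS libraries, against 2.54, 2.40 and 2.74 FPKM in Ctrl libraries. The DSS range enclosed the Ctrl range, and the change was 0.16 ± 0.30 SE (limma adjusted p = 0.921). The sign of this change turned without DSS replicate 2 (−0.04).

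Socs6 measured 0.884, 2.16 and 3.33 FPKM in DSS libraries, against 2.47, 2.57 and 2.32 FPKM in Ctrl libraries. The DSS range again enclosed the Ctrl range, spanning 3.77-fold against 1.11-fold, and the low value rests on 80 fragments. Its change was −0.23 ± 0.38 SE (limma adjusted p = 0.907), and 0.099 without DSS replicate 1. Socs7 measured 1.70, 2.58 and 2.67 FPKM in DSS libraries, against 1.43, 1.45 and 1.98 FPKM in Ctrl libraries. DSS replicate 1 lay within the Ctrl range and the other DSS libraries above it, with a change of 0.33 ± 0.34 SE (limma adjusted p = 0.849). Socs7 and Socs4 were the 2 members with a change above 0.

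Pim1, Pim2 and Pim3 encode kinases that overlap in function; Pim3 was not a member and is given from the list of STAT targets. Pim1 measured 84.8, 102 and 101 FPKM in DSS libraries, against 125, 114 and 88.9 FPKM in Ctrl libraries. The groups overlapped, with a change of −0.17 ± 0.21 SE (limma adjusted p = 0.875), and of −0.09 without DSS replicate 1. Annotated Pim1 exons overlap the antisense gene Gm26885 by 892 bp, and fragments of this overlap cannot be separated by strand either. Pim2 measured 58.4, 81.1 and 75.4 FPKM in DSS libraries, against 75.6, 75.0 and 77.1 FPKM in Ctrl libraries. The Ctrl libraries agree to within 1.03-fold and lie inside the DSS range, with a change of −0.10 ± 0.20 SE (95% interval −0.54 to 0.35, limma adjusted p = 0.926), and of 0.04 without DSS replicate 1. Pim3 was the most abundant of the 3 kinases, with 109, 326 and 335 FPKM in DSS libraries, against 406, 392.3 and 368 FPKM in Ctrl libraries. Its DSS libraries all lay below the Ctrl libraries, but its change was −0.76 ± 0.39 SE with DSS replicate 1 and −0.23 ± 0.12 SE without it (limma adjusted p = 0.634 and 0.38).

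**Figure D2:**
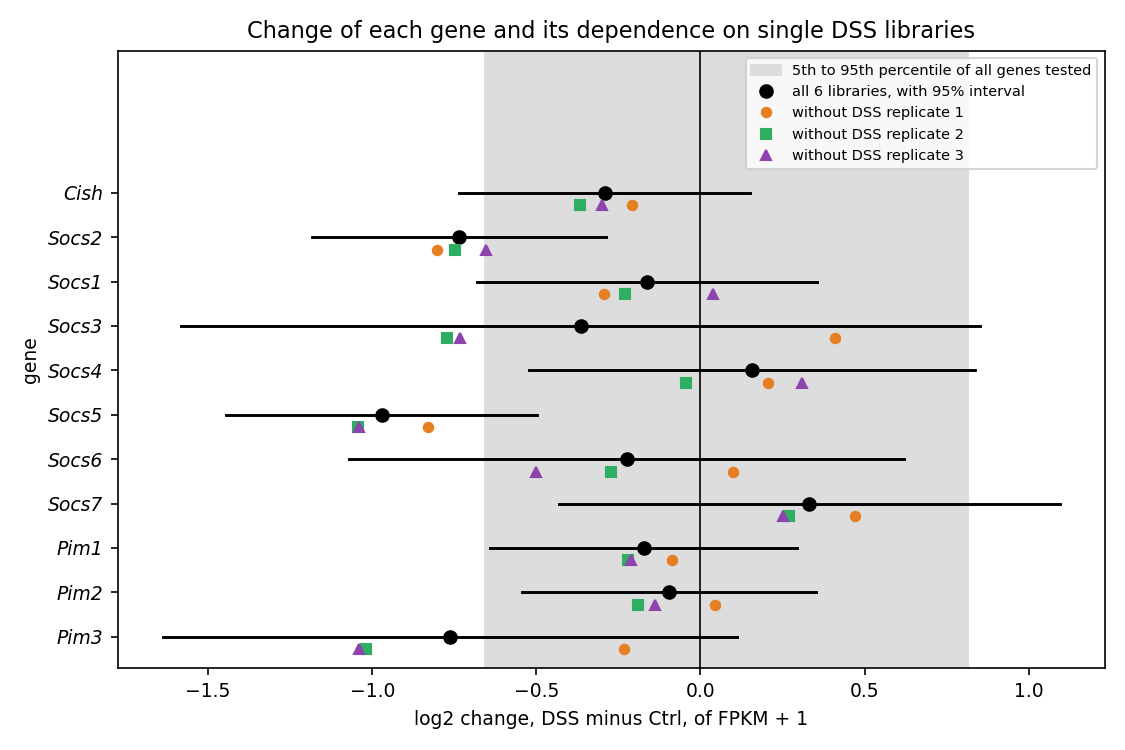
Log2 change of FPKM + 1, DSS minus Ctrl, for each gene with its 95% interval (black), and the same change without each DSS library (coloured). Socs2 and Socs5 have intervals below 0 and stay below 0 in each of the 3 fits, while Socs3 and Pim3 move by more than 0.5 when DSS replicate 1 is left out; grey marks the 5th to 95th percentile of all genes tested, −0.66 to 0.81.

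DSS replicate 1 was the lowest DSS library for 7 of 10 members, and DSS replicate 3 for the other 3 (Socs1, Socs2 and Socs4). The share of all genes tested that were lowest in each DSS library was not computed, so these counts are not a trait of the members. The spread on the log2 scale was wider in DSS than in Ctrl for 9 of 10 members, all but Pim1, and for 77.2% of all genes tested. DSS replicate 1 also had the highest summed FPKM of the table, 550141 against 424865 to 462759 in the other 5 libraries. Without it, 2 of 10 members fell by limma, Socs2 (log2 change −0.80 ± 0.13 SE, limma adjusted p = 0.00999) and Socs5 (−0.83 ± 0.15 SE, limma adjusted p = 0.0157). In that fit 413 genes passed, 3.39% of those tested, and 281 of them (2.31%) were lower in DSS. The count of members below 0 was then 5 of 10, with a member median of −0.02 and a median of 0.12 over all genes. In the fits without 1 of the other 5 libraries no member passed. Without DSS replicate 1, 4 of 10 members had no overlap between groups, against 31.5% of all genes (14.6% lower in DSS). That count was 5 without Ctrl replicate 3 and 7 without both replicates 3, where 29.0% and 44.6% of genes had no overlap. Giving libraries weights by their fit called 3 members, Socs2 and Socs5 lower and Socs4 higher, against 27.0% of all genes (15.0% lower). These weights had not converged and gave DSS replicate 2, where Socs4 was highest, 17.8 against 0.147 for DSS replicate 1. A gene-by-gene update of the weights called Socs2 and Socs5, against 5.21% of all genes (3.15% lower).

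**Figure D3:**
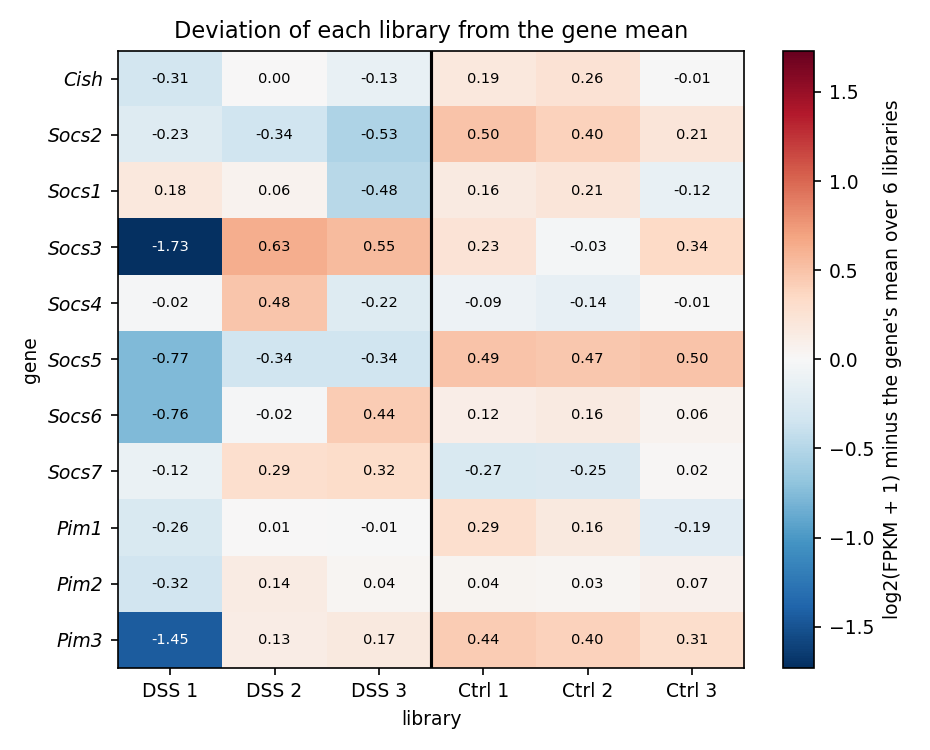
Deviation of each library from the gene's own mean log2(FPKM + 1), with DSS libraries left of Ctrl libraries. DSS replicate 1 reaches −1.73 for Socs3 and −1.45 for Pim3, whereas Socs2 and Socs5 are negative in all 3 DSS libraries and positive in all 3 Ctrl libraries.

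The summed level of the 8 SOCS transcripts was 457, 492 and 429 FPKM in DSS libraries, against 686, 674 and 581.5 FPKM in Ctrl libraries. Cish and Socs2 together made up 83.1% ± 0.999 of this sum in DSS and 85.7% ± 0.424 in Ctrl libraries (SD, n = 3 each). Socs2 alone took 47.6%, 40.9% and 41.0% of it in DSS libraries, against 52.5%, 50.01% and 50.6% in Ctrl libraries, so the DSS shares were all lower. Cish took 35.5%, 41.1% and 43.0% in DSS libraries, against 33.6%, 35.8% and 34.6% in Ctrl libraries, with 1 DSS library inside the Ctrl range. Ratios of relatives within a library do not depend on how libraries are scaled, and 5 were computed, a choice made after values were seen. The size of a ratio or share does depend on the gene lengths used. The ratio of Socs2 to Cish was 1.34, 0.996 and 0.953 in DSS libraries, against 1.57, 1.399 and 1.46 in Ctrl libraries. The ratio of Socs5 to Socs4 was 2.66, 2.36 and 4.51 in DSS libraries, against 7.34, 7.61 and 6.82 in Ctrl libraries. For both ratios all DSS libraries lay below the Ctrl libraries, with an exact two-sided permutation p of 0.1, the smallest that 3 against 3 allows (0.25 adjusted over the 5 ratios). Their numerators, Socs2 and Socs5, are the members whose groups did not overlap, so the ratios are no separate evidence. The ratios of Socs3 to Socs1, Socs7 to Socs6 and Pim1 to Pim2 overlapped between the groups, with exact permutation p of 1, 0.2 and 0.7 (adjusted 1, 0.333 and 0.875).

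The other genes of the pathway were read from 10 lists of 154 distinct genes, 133 of them tested. List genes averaging below 1 FPKM were not tested, and all of these except Epor had a higher mean in DSS. The counts of list genes below 0 leave them out. By limma 1 passed over all genes (27 at an unadjusted p under 0.05), and by limma voom 1 passed, the same gene, Il5. Of all genes tested, 8.99% had an unadjusted limma p under 0.05, the share to set beside each unadjusted count below. Among cytokines that signal through JAKs, 1 of 18 tested was called, against 0.148% of all genes called lower. Il5, the eosinophil growth factor, fell to 73.8, 65.2 and 58.9 FPKM in DSS libraries, against 371, 358 and 348 FPKM in Ctrl libraries (log2 change −2.43 ± 0.19 SE, limma adjusted p = 8.66e-04; 0.0645 without both replicates 3). The count of list genes called was 3 with the replicate number as a block, among 22 of 12187 genes in all, and 21 without DSS replicate 1, where 3.39% of all genes were called. Among the genes named below, Jak2, Ifngr2, Il2ra, Il10ra, Dusp2, Rnf7, Bcl2l1, Bcl2, Arg1 and Asb2 were called without that library and not with it.

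Of 31 receptor chains 23 were tested, and 14 of these were below 0 (46.9% of all genes), with a median change of −0.25. The chains not tested all had a higher mean in DSS except Epor. In 9 chains all DSS libraries lay below the Ctrl libraries (9.60% of all genes) and in 1 all lay above (6.35%), and 0 passed by limma (6 at an unadjusted p under 0.05). Il2ra, a chain of the high-affinity IL-2 receptor and itself a STAT5 target, measured 61.4, 69.8 and 69.1 FPKM in DSS libraries, against 110.1, 108 and 110 FPKM in Ctrl libraries (limma adjusted p = 0.196). Ifngr2, a chain of the interferon gamma receptor, averaged 16.9 ± 3.85 FPKM in DSS and 34.1 ± 1.51 FPKM in Ctrl, and Il10ra 41.3 ± 15.8 and 79.5 ± 5.50 FPKM (SD, n = 3 each, limma adjusted p = 0.136 and 0.267). Groups did not overlap for these 3 chains. Of the 11 kinases and STATs, 8 were below 0, with a median of −0.20 and 0 passing by limma (2 at an unadjusted p under 0.05). Jak2 averaged 62.9 ± 2.42 FPKM in DSS and 103 ± 5.38 FPKM in Ctrl (SD, n = 3 each, limma adjusted p = 0.196). Stat3, a known inducer of Socs3, measured 25.7, 63.3 and 68.2 FPKM in DSS libraries, against 77.9, 75.4 and 75.99 FPKM in Ctrl libraries. Its lowest value was in DSS replicate 1, the library in which Socs3 was lowest and the lowest DSS library for 7 of 10 members. The Stat3 log2 change was −0.65 with that library and −0.21 without it. A link between Stat3 and Socs3 was not tested.

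Genes known as STAT targets did not share 1 direction. Of 14 further STAT5 or STAT3 targets, 10 were below 0 (median −0.19, 0 passing by limma, 3 at an unadjusted p under 0.05). Bcl2l1, which encodes the survival protein BCL-XL, measured 23.7, 49.3 and 52.4 FPKM in DSS libraries, against 98.1, 115 and 99.3 FPKM in Ctrl libraries (limma adjusted p = 0.132). Bcl2, its survival relative, measured 35.3, 38.8 and 34.8 FPKM in DSS libraries, against 19.2, 18.8 and 21.1 FPKM in Ctrl libraries (limma adjusted p = 0.136). The groups of both genes did not overlap, in opposite directions. Of 10 STAT6 or IL-4 targets only 4 were tested, of which 3 were below 0 and 0 passed by limma (2 at an unadjusted p under 0.05). The targets not tested averaged below 1 FPKM, and all of them had a higher mean in DSS, from Ccl22 (0.687 against 0.650 FPKM) to Ccl24 (1.68 against 0.241 FPKM). The direction of this list thus rests on the genes that passed the filter. Arg1 averaged 117 ± 8.79 FPKM in DSS and 183 ± 21.5 FPKM in Ctrl, and Gata3 538 ± 217 and 859 ± 22.8 FPKM (SD, n = 3 each, limma adjusted p = 0.304 and 0.497). Il4ra, the IL-4 receptor chain, averaged 90.6 ± 41.0 FPKM in DSS and 120 ± 2.57 FPKM in Ctrl (SD, n = 3 each, limma adjusted p = 0.731). Both Gata3 and Il4ra were lowest in DSS replicate 1. Without it the log2 change was −0.37 for Gata3, against −0.78 with it, and −0.09 for Il4ra, against −0.53 with it.

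**Figure D4:**
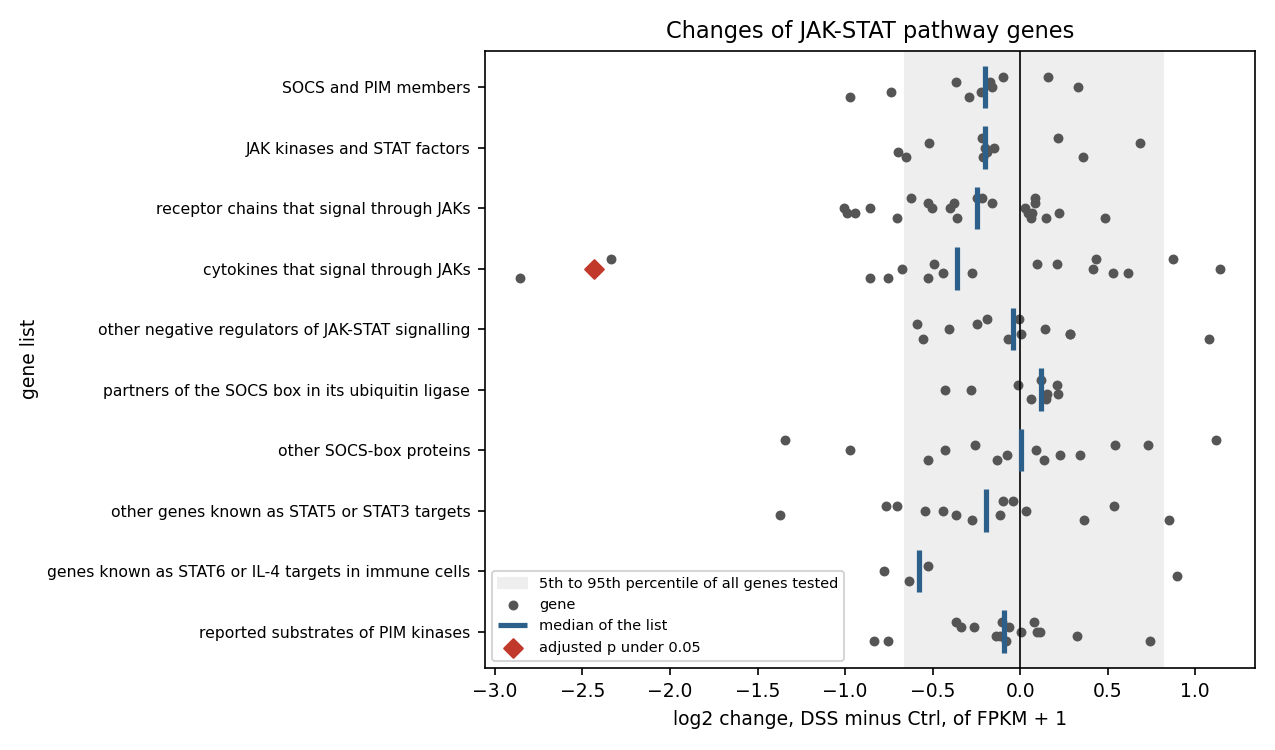
Log2 change of FPKM + 1, DSS minus Ctrl, of each tested gene in the members and 9 of the 10 pathway lists, with the list median (blue bar). Il5 is the 1 gene past an adjusted p of 0.05. The medians run from −0.58 for the STAT6 targets, of which only 4 of 10 were tested, to 0.12 for 9 partners of the SOCS box.

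Partners and relatives of the members were also read. Of 12 other negative regulators of the pathway, 7 were below 0, with a median of −0.04 and 0 passing by limma (1 at an unadjusted p under 0.05). Dusp2, a phosphatase of activated lymphocytes, measured 207, 113 and 93.2 FPKM in DSS libraries, against 59.2, 67.3 and 56.4 FPKM in Ctrl libraries (limma adjusted p = 0.209). Ptpn2, a phosphatase of JAK1 and JAK3, averaged 39.9 ± 1.64 FPKM in DSS and 53.2 ± 3.32 FPKM in Ctrl, and Ptpn6, the SHP-1 phosphatase, 20.8 ± 9.47 and 30.6 ± 8.80 FPKM (SD, n = 3 each, limma adjusted p = 0.564 and 0.682). The Ptpn6 change was −0.59 with DSS replicate 1 and −0.27 without it. The 9 partners of the SOCS box in its ubiquitin ligase had 3 below 0 and a median of 0.12, with 0 passing by limma and 0 at an unadjusted p under 0.05. Rnf7, a RING subunit used with cullin 5, measured 28.9, 16.1 and 15.9 FPKM in DSS libraries, against 23.6, 27.9 and 28.7 FPKM in Ctrl libraries. DSS replicate 1 was the highest library and the other DSS libraries the lowest (limma adjusted p = 0.709). Dcun1d1 and Ube2f, which act in cullin neddylation, had limma adjusted p of 0.811 and 0.854.

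The genes whose library pattern was most like Cish, Socs2 and Pim1 were taken as those with the smallest root mean square difference of log2 deviations over the 6 libraries, among 4442 candidates. For Socs2 they were Plscr1 (0.049), Arg1 (0.063) and Tgif1 (0.068). Plscr1 measured 134, 121 and 106 FPKM in DSS libraries, against 238, 214 and 189 FPKM in Ctrl libraries. For Cish they were Nono (0.044), Ywhab (0.048) and Fosb (0.054), and for Pim1 Rhoa (0.052), Mapk1ip1l (0.055) and Tcn2 (0.075). These are similarities of pattern over libraries that share the same groups.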

How the data were processed

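RNA from sorted colonic ILC2s was made into full-length cDNA with a SMART-Seq HT kit and into Nextera XT libraries, which do not mark strand, per the labels' protocols. Per the submitters' processing notes, cutadapt 1.9, HISAT2 2.2.1 and the build mm10 were used. The sources used here do not give the counting tool, annotation or gene lengths. Deposited by the authors were FPKM values for 23268 genes. Samples were placed in groups by title.

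Within a gene the values are whole multiples of a step. The smallest whole fragment numbers (tolerance 0.001) were recovered for 22700 of 22701 genes above 0; a factor shared by all libraries of a gene cannot be seen, so totals are slightly low. Groups were compared on log2(FPKM + 1) by limma 3.58.1 in R 4.3.3 (trend, two-sided, Benjamini-Hochberg, threshold 0.05), over the 12187 genes averaging 1 FPKM or more. The fit was also run on data simulated with an even spread in all libraries. The real spread was wider in DSS for 77.2% of genes, so that run does not tell how the fit performs here. Members and lists were chosen with earlier results of these data known. Named genes were all members, Pim3, and from each list those past the threshold or else the 3 with the smallest p; 1 list and 1 gene of another are not reported here. Deviations from the group means correlated at 0.189, 0.262 and 0.545 between same-numbered libraries (replicates 1, 2 and 3), above the 0.1 set for taking numbers as pairs. Unlike numbers also passed it, DSS replicate 2 with Ctrl replicate 1 at 0.345 and DSS replicate 1 with Ctrl replicate 2 at 0.101. Both replicates 3 had the fewest fragments of their group (9677212 in DSS and 12282879 in Ctrl). They also had the most genes above 0 (22153 in DSS and 21647 in Ctrl, against 15809 to 19290 in the other libraries). Any part of this in the correlations was not tested. The labels state no pairing, so it is a hint from the data, and the block is reported with the alternatives. Gene positions came from GENCODE M21, which is GRCm38, the same as mm10. Alternatives were 2 pseudocounts (0.1 and 5), 2 filters, 3 scalings, library weights, the replicate block, voom and libraries left out. Figures used matplotlib 3.10.9.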

Additional observations from a re-analysis of the deposited data

How the results depend on the processing

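Socs2 and Socs5 stayed below 0 in each of the 18 alternatives, at −0.82 to −0.65 and −1.05 to −0.75, with limma adjusted p of 8.03e-05 to 0.911 and 1.12e-04 to 0.646. They passed in 3 of the 18: without DSS replicate 1 and with both kinds of library weights. The default weights stopped before converging and gave DSS replicate 2 a weight of 17.8 against 0.147 for DSS replicate 1, so the gene-by-gene update was added after seeing the data. All genes past the threshold numbered 27 (9 higher, 18 lower in DSS). They numbered 14 with equal FPKM totals (6 higher, 8 lower), 9 with median-of-ratios scaling (5 higher, 4 lower) and 19 with quantile normalization (8 higher, 11 lower). They numbered 3286 and 635 with the weights, 5 without both replicates 3, and 4 to 413 leaving out each library. Members past the threshold numbered 3 (Socs4 included) and 2 with the weights, and 0 to 2 leaving out each library. Members below 0 ran from 5 to 9 of 10 leaving out each library, and their median from −0.27 to −0.022 (−0.36 without both replicates 3). Members with no overlap between groups ran from 2 to 5 leaving out each library (5 without Ctrl replicate 3, where 29.0% of genes had none, and 4 without DSS replicate 1, where 31.5% had none), and 7 without both replicates 3, where 44.6% had none. Pathway list genes past the threshold numbered 51 and 22 with the weights, 2 with a pseudocount of 5, 3 with the replicate block, 0 without both replicates 3, and 1 to 21 leaving out each library. The replicate block changed no member's call and gave 22 genes in all. The sign turned for Pim2 with quantile normalization (0.020), both weights (0.095 and 0.047) and without DSS replicate 1 (0.043), and for Socs3 with both weights (0.49 and 0.30) and without DSS replicate 1 (0.41). It also turned for Socs4 with quantile normalization (−0.090) and without DSS replicate 2 (−0.043), Socs6 without DSS replicate 1 (0.099) and Socs1 without DSS replicate 3 (0.039). None of these turned values passed. Leaving out each library, the lowest or highest values on the other side were −0.19 for Pim2, −0.77 for Socs3, 0.31 for Socs4, −0.50 for Socs6 and −0.29 for Socs1. The cause was not tested. A mean of at least 5 FPKM left out Socs4, Socs6 and Socs7. Members near 2 FPKM rest on 80 to 560 fragments per library, which limits what can be seen for them.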

Other observations

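Other proteins with a SOCS box gave 14 tested genes, 7 below 0 and 7 above, with a median log2 change of 0.01 and 0 passing by limma (2 at an unadjusted p under 0.05). Asb2, which encodes an adaptor that sends filamins for degradation, measured 70.9, 101 and 84.95 FPKM in DSS libraries, against 162, 172 and 168 FPKM in Ctrl libraries (log2 change −0.97 ± 0.20 SE, limma adjusted p = 0.130). The groups did not overlap, and the size of the change was like that of Socs5 (−0.97). Spsb1, an adaptor for inducible nitric oxide synthase, measured 0.755, 2.12 and 1.31 FPKM in DSS libraries, against 3.17, 7.06 and 5.17 FPKM in Ctrl libraries (limma adjusted p = 0.209). Rab40c averaged 6.75 ± 2.29 FPKM in DSS and 3.73 ± 1.80 FPKM in Ctrl libraries (SD, n = 3 each, limma adjusted p = 0.580).

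Of 16 tested genes whose products are reported PIM substrates, 10 were below 0, with a median of −0.09 and 0 passing by limma (2 at an unadjusted p under 0.05). Foxo1, a transcription factor restrained by growth signals, measured 7.24, 15.2 and 12.9 FPKM in DSS libraries, against 20.6, 22.2 and 16.8 FPKM in Ctrl libraries (limma adjusted p = 0.416). Nfatc1, an activation factor, measured 11.3, 25.6 and 29.6 FPKM in DSS libraries, against 35.1, 38.2 and 39.0 FPKM in Ctrl libraries (limma adjusted p = 0.444). The groups of both genes did not overlap, and DSS replicate 1 was the lowest library for each, and without it the log2 changes were −0.47 for Foxo1 and −0.43 for Nfatc1, against −0.75 and −0.83 with it. Myc averaged 145 ± 17.3 FPKM in DSS and 186 ± 7.19 FPKM in Ctrl libraries (SD, n = 3 each, limma adjusted p = 0.644).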
